A study of Mus musculus with 6 samples.

Results

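The genes described here belong to the angiotensin and endothelin systems, and were measured in mouse ureters 4 days after unilateral ureteral obstruction, in which one ureter is blocked so that urine backs up behind it. The set was given by name and holds 9 genes: Agt, Ace, Agtr1a, Agtr2, Edn1, Edn2, Ednra, Ednrb and Ece1. They are covered by 14 of the 56605 non-control probes of the arrays, and 8 of them were among the 22260 genes tested; Edn2 was too dim on every array. The ureters came from mice aged 2 months on the C57BL/6N background, with 3 samples of the genotype Col17a1-WT (all male) and 3 of Col17a1-KO (replicates 1 and 2 male, replicate 3 female). Every ureter of both groups was obstructed, so no unobstructed baseline enters any comparison. Cy3-labelled cRNA of each sample was hybridised to 1 single-colour Agilent array. The labels say neither which part of Col17a1 was altered nor in which cells, and they do not say whether a sample is 1 ureter or a pool. The p-values set the difference between the groups against the spread between samples of the same group. Whether that is a spread between single animals is not known.

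In the angiotensin system, the protease renin cuts the secreted precursor angiotensinogen (Agt), and angiotensin-converting enzyme (Ace) trims the product to angiotensin II. That peptide contracts smooth muscle through the type 1 receptor (Agtr1a, and its close rodent copy Agtr1b), while the type 2 receptor (Agtr2), abundant in fetal tissue and known from the development of the urinary tract, often acts in the opposite sense. Endothelins (Edn1, Edn2) are likewise made as precursors and are cut to the active peptide by endothelin-converting enzyme 1 (Ece1). Their type A receptor (Ednra) sits mainly on smooth muscle and contracts it, and their type B receptor (Ednrb) clears the peptide and releases nitric oxide from endothelium, and also marks cells of neural crest origin.

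The upstream sequences of 5 members are shown because their genes differed most in how they behaved across the arrays. Agt and Agtr2 varied most, Ace least, and the 2 endothelin receptors were highest on different arrays. Each is the 250 bases before the annotated start, 5′ to 3′ on the gene's strand, from RefSeq (GRCm38.p6), and capitals mark matches to the motifs searched.
Agt (chr8:124569707-124569956, strand minus): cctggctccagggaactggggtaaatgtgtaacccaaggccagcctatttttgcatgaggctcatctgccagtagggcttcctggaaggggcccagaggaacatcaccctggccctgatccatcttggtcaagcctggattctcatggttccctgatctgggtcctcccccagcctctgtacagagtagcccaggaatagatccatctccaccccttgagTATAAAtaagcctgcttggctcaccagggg
Ace (chr11:105967698-105967947, strand plus): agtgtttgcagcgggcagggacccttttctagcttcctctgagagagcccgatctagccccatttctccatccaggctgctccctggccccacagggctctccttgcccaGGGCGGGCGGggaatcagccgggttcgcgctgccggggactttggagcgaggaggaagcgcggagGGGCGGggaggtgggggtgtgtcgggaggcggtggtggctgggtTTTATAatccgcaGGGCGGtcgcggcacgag
Agtr2 (chrX:21484374-21484623, strand plus): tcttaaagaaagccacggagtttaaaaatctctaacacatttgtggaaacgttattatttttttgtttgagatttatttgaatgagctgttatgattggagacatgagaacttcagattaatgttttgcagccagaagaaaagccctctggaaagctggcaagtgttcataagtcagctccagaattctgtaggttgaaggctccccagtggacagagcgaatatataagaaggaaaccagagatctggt
Ednra (chr8:77724453-77724702, strand minus): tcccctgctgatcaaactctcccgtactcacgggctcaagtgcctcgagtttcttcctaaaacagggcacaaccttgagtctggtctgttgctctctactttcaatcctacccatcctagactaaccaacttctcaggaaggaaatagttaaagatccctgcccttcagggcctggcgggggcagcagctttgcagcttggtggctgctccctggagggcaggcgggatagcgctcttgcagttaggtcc
Ednrb (chr14:103843702-103843951, strand minus): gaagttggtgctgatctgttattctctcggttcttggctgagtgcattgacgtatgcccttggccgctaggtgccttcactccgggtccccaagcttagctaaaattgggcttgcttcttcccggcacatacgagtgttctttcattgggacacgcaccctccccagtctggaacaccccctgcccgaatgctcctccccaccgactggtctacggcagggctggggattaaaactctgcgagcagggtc
The motifs were the TATA box TATAAA, the GC box GGGCGG, the AP-1 motif TGANTCA and the hypoxia response core ACGTG, on both strands. Among all 32851 RefSeq upstream sequences of this length, 12.4% held the TATA box, 32.7% the GC box, 6.75% the AP-1 motif and 16.6% the hypoxia core. Agt had 1 TATA box, and Ace, at the first of its annotated starts, had 1 TATA box and 4 GC box matches, 2 of them overlapping. In the windows of Agtr2, Ednra and Ednrb no match to these letters was found. Upstream sequences were matched for 8 of the 9 members, all but Agtr1a.

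The arrays stood apart in ways that touch these genes. Log2 signals below are given relative to the 75th percentile of each array, which was a signal of 144 to 165, and are called levels. Col17a1 was higher in the samples labelled KO at both of its probes, by 1.65 and 1.10, and its probes may lie outside the altered part, so the group is called KO-labelled and each direction rests on the labels. WT replicate 2 carried kidney transcripts: its mean over 7 measured kidney tubule and podocyte genes, relative to the mean of all arrays, was 1.45, against -0.33 to -0.24 on the other 5 arrays. Of 22 defining markers (2 for each of 11 cell type lists), 21 were well above background on all arrays, including Acta2 and Myh11 of smooth muscle and Upk1a and Upk1b of urothelium, the lining of the ureter. The exception, the tubule receptor Lrp2, was above background on 4 arrays. A lower level in bulk tissue can mean fewer cells of a type or less RNA per cell, and these cannot be told apart.

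None of the 8 tested members passed the test for a difference between the groups. Their adjusted p-values lay between 0.612 and 0.999 (limma, Benjamini-Hochberg over 22260 genes, threshold 0.05), and over all genes 0 passed (0%). At an unadjusted p under 0.05 there were 0 members, where 9.06% of all genes were counted. The groups overlapped for all 8, while 15.4% of all genes had groups that did not overlap. The difference was positive for 7 of the 8, the exception being Ednrb, with a median of 0.23; over all genes 11084 of 22260 were positive and the median was -0.00087. Differences were also positive for 11 of 11 urothelium, 10 of 10 smooth muscle and 5 of 5 mesothelium markers, with medians of 0.88, 0.66 and 0.82. Upk3b and Krt19 are on both the urothelium and the mesothelium list, and Krt19 gave the mesothelium median. The other mesothelium markers differed by 1.48 (Msln), 0.47 (Lrrn4) and 0.0094 (Wt1). The part of these cell types in the members' differences was not tested. For 6 members the 95% interval of the difference lay within a 2-fold change in either direction, as it did for 82.7% of all genes; for Agt and Agtr2 it did not.

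**Figure D1:**
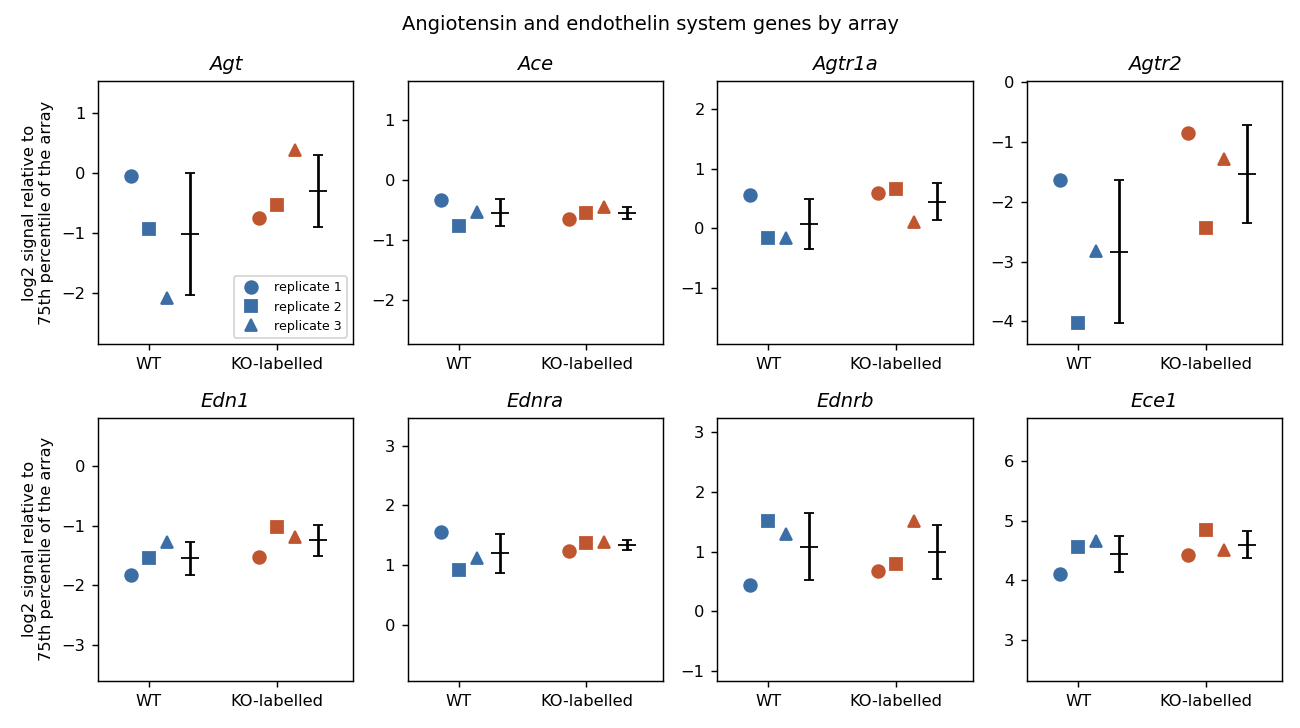
Log2 signal of the 8 measured members (y axis, relative to the 75th percentile of each array, same span in every panel) on the 3 WT and 3 KO-labelled arrays, with symbols for the replicate number and the group mean ± SD beside them. Agt and Agtr2 spread over 2.47 and 3.18 across the 6 arrays and Ace over 0.44, and the groups overlap in every panel.

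Agt, the precursor of all angiotensin peptides, had levels of -0.046, -0.94 and -2.08 in WT replicates 1 to 3 and of -0.75, -0.53 and 0.39 in KO-labelled replicates 1 to 3. WT replicate 3 was lowest, KO-labelled replicate 3 was highest, and WT replicate 1 lay above KO-labelled replicates 1 and 2. The group means were -1.02 ± 1.02 and -0.30 ± 0.61 (SD, n = 3 each). The difference was 0.72 ± 0.55 (standard error; 95% interval -0.62 to 2.07; limma, adjusted p = 0.736). It was 0.20 without WT replicate 3, 1.21 without WT replicate 1, 0.38 without KO-labelled replicate 3 and 0.41 with normexp background correction. Agt is made by liver, fat and kidney tubule among other tissues. The kidney-marked array, WT replicate 2, was not the highest for Agt. The adipocyte list, with all 8 genes measured, ranged from -0.27 to 0.41 in WT and from -0.23 to 0.16 in KO-labelled arrays; it was highest in WT replicate 1 and its value in KO-labelled replicate 3, where Agt was highest, was -0.23. The part of these tissues in the Agt levels was not tested.

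Ace, which makes angiotensin II and is best known from endothelium, was the most even member. Its levels were -0.33, -0.77 and -0.54 in WT and -0.65, -0.54 and -0.44 in KO-labelled replicates 1 to 3. The highest and the lowest value both belonged to WT arrays. The difference was 0.0010 ± 0.14 (95% interval -0.35 to 0.35; limma, adjusted p = 0.999), so the interval covers folds from 0.787 to 1.27. The endothelium list, with 10 of 10 genes measured, had a median difference of 0.058 and overlapping ranges, -0.15 to 0.096 in WT and -0.15 to 0.37 in KO-labelled arrays.

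Agtr1a, the main angiotensin II receptor of smooth muscle, had levels of 0.56, -0.17 and -0.16 in WT and 0.59, 0.66 and 0.10 in KO-labelled arrays. WT replicate 1 stood with KO-labelled replicates 1 and 2, and KO-labelled replicate 3 lay between them and WT replicates 2 and 3. The difference was 0.37 ± 0.25 (95% interval -0.25 to 0.99; limma, adjusted p = 0.700). Leaving out WT replicate 1 gave 0.61, and leaving out WT replicate 2 or 3 gave 0.25. The smooth muscle list, with 10 of 10 genes measured, ranged from -0.85 to 0.15 in WT and from -0.21 to 0.64 in KO-labelled arrays, and WT replicate 1 and KO-labelled replicates 1 and 2 had its highest values too; the part of muscle content in Agtr1a was not tested. Agtr1b, the second type 1 receptor gene of the mouse, was not well above background on every array of either group.

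Agtr2, the X-linked type 2 receptor, had the largest difference and the largest spread of the 8 tested members. Its levels were -1.64, -4.03 and -2.82 in WT and -0.86, -2.44 and -1.29 in KO-labelled replicates 1 to 3. WT replicate 2 was lowest by more than 1 log2 unit, and WT replicate 1 lay above KO-labelled replicate 2. The means were -2.83 ± 1.20 and -1.53 ± 0.82 (SD, n = 3 each), a difference of 1.30 ± 0.67 (95% interval -0.33 to 2.94; limma, adjusted p = 0.612). In fold terms the estimate was 2.47, with an interval from 0.795 to 7.65. Without the kidney-marked WT replicate 2 it was 0.70 on the log2 scale, and with normexp background correction 0.42. Without the female, KO-labelled replicate 3, it was 1.18. The pooled SD within groups, 1.03, was above that of 98.7% of all genes, and that of Agt, 0.84, above 97.4%, where the median gene had 0.20.

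Edn1, the precursor of endothelin-1, which epithelium and endothelium secrete, had levels of -1.83, -1.54 and -1.28 in WT and -1.53, -1.02 and -1.18 in KO-labelled arrays. KO-labelled replicates 2 and 3 were the highest, and KO-labelled replicate 1 lay among the WT values. The difference was 0.30 ± 0.20 (95% interval -0.17 to 0.78; limma, adjusted p = 0.686), and it was 0.14 under normexp background correction, 0.16 when WT replicate 1 was left out and -0.010 with array weights. The urothelium list, with 11 of 11 genes measured, ranged from -0.81 to -0.10 in WT and from -0.0011 to 0.74 in KO-labelled arrays, and its part in Edn1 was not tested. The array with the highest urothelium value, KO-labelled replicate 1, was the lowest of its group for Edn1, while KO-labelled replicate 2 had the highest value of both Edn1 and the endothelium list. The genes of the urothelium list did not share an order of arrays. Upk1a ran from 3.60 in WT replicate 2 to 5.96 in KO-labelled replicate 1. Epcam ran from -1.43 in WT replicate 1 to 0.33 in KO-labelled replicate 2, which were also the lowest and highest arrays for Edn1. Edn2, the precursor of endothelin-2, was not well above background on any of the 6 arrays, so no fold is given.

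Ece1, the protease that releases active endothelin, was measured by 3 probes. At its brightest probe (chromosome 4, 137521065 to 137521124, mm9) the levels were 4.10, 4.56 and 4.67 in WT and 4.43, 4.85 and 4.51 in KO-labelled arrays. WT replicate 1 was lowest and the other arrays were interleaved. The difference was 0.15 ± 0.19 (95% interval -0.31 to 0.62; limma, adjusted p = 0.839), and without WT replicate 1 it was -0.016. Another probe to the same RefSeq transcript lies at 137512407 to 137512466, and its sequence is shown because it repeated the low value of WT replicate 1.
Ece1 probe: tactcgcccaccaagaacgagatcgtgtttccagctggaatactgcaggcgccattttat
Its difference was 0.093 ± 0.33, and WT replicate 1, at -3.46, was again the lowest array. The last probe, which the files tie to a cDNA clone (137472100 to 137472159), differed by 0.013 ± 0.17. It was lowest in KO-labelled replicate 1, at -2.63, and stood at -2.50 in WT replicate 1. All 3 were above background on every array, and their differences had the same sign but were each smaller than the standard error.

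Ednra, the contractile endothelin receptor, had levels of 1.55, 0.92 and 1.12 in WT and 1.24, 1.37 and 1.39 in KO-labelled arrays (chromosome 8, 80186985 to 80187044, mm9). The 3 KO-labelled values fell inside the WT range and spread over 0.15, where the WT values spread over 0.63. The difference was 0.14 ± 0.18 (95% interval -0.29 to 0.56; limma, adjusted p = 0.842), and it was 0.00089 without WT replicate 2 and 0.31 without WT replicate 1. A probe to a cDNA clone, at 80184559 to 80184618, was above background on 0 WT arrays and 1 KO-labelled array. No difference is given for it, since its signal was near the detection limit.

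Ednrb, the clearing receptor, followed another order of arrays than the other receptors. At its brightest probe (chromosome 14, 104214484 to 104214543, mm9) the levels were 0.45, 1.51 and 1.30 in WT and 0.67, 0.80 and 1.51 in KO-labelled replicates 1 to 3. WT replicates 2 and 3 and KO-labelled replicate 3 were high, and WT replicate 1 and KO-labelled replicates 1 and 2 were low. The difference was -0.092 ± 0.34 (95% interval -0.93 to 0.74; limma, adjusted p = 0.958). It turned positive when WT replicate 2 (0.12), WT replicate 3 (0.013), KO-labelled replicate 1 (0.069) or KO-labelled replicate 2 (0.0040) was left out. The same split of the arrays appeared at both other Ednrb probes, of which the one the files assign to transcript variant 3 (104220870 to 104220929) is shown.
Ednrb probe: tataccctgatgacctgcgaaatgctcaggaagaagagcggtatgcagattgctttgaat
There the levels were -0.34, 0.49 and 0.41 in WT and -0.19, -0.30 and 0.29 in KO-labelled arrays. At the probe for variant 2 (104215479 to 104215538) they were -2.89, -1.94 and -2.29 and then -2.85, -3.12 and -2.42. The differences at these probes were -0.25 ± 0.28 and -0.42 ± 0.30, so all 3 probes agreed in sign and in which arrays were high.

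WT replicate 1 and WT replicate 2 were at opposite ends for several members. WT replicate 2 was the lowest array for Ace, Agtr1a, Agtr2 and Ednra and the highest for Ednrb, and WT replicate 1 was the highest for Ace and Ednra and the lowest for Edn1, Ednrb and Ece1. On the neutrophil list, with 8 of 8 genes measured, WT replicate 2 and KO-labelled replicate 3 had the highest values, 0.71 and 0.53, and WT replicate 1 and KO-labelled replicate 1 the lowest, -0.69 and -0.63. These are also among the arrays high and low for Ednrb, but other lists split the arrays in the same places. The smooth muscle list was the reverse, with 0.15, 0.64 and 0.42 in WT replicate 1 and KO-labelled replicates 1 and 2. It had -0.85, -0.15 and -0.21 in WT replicates 2 and 3 and KO-labelled replicate 3. The list of response genes, described below, was high on these last arrays, at 0.36, 0.32 and 0.32. The Schwann cell and neuron list, whose cells can express Ednrb, ranged from -0.33 to 0.38 in WT and from -0.093 to 0.19 in KO-labelled arrays, and was highest in WT replicate 1, where Ednrb was lowest. The part of cell makeup in these orders was not tested. Ranges of the remaining lists, first in WT and then in KO-labelled arrays, were 0.10 to 0.44 and -0.53 to 0.11 for monocytes and macrophages, -0.60 to -0.039 and 0.25 to 0.62 for mesothelium, -0.15 to 0.059 and -0.042 to 0.094 for pericytes and fibroblasts, and -0.028 to 0.12 and -0.18 to 0.27 for mast cells.

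**Figure D2:**
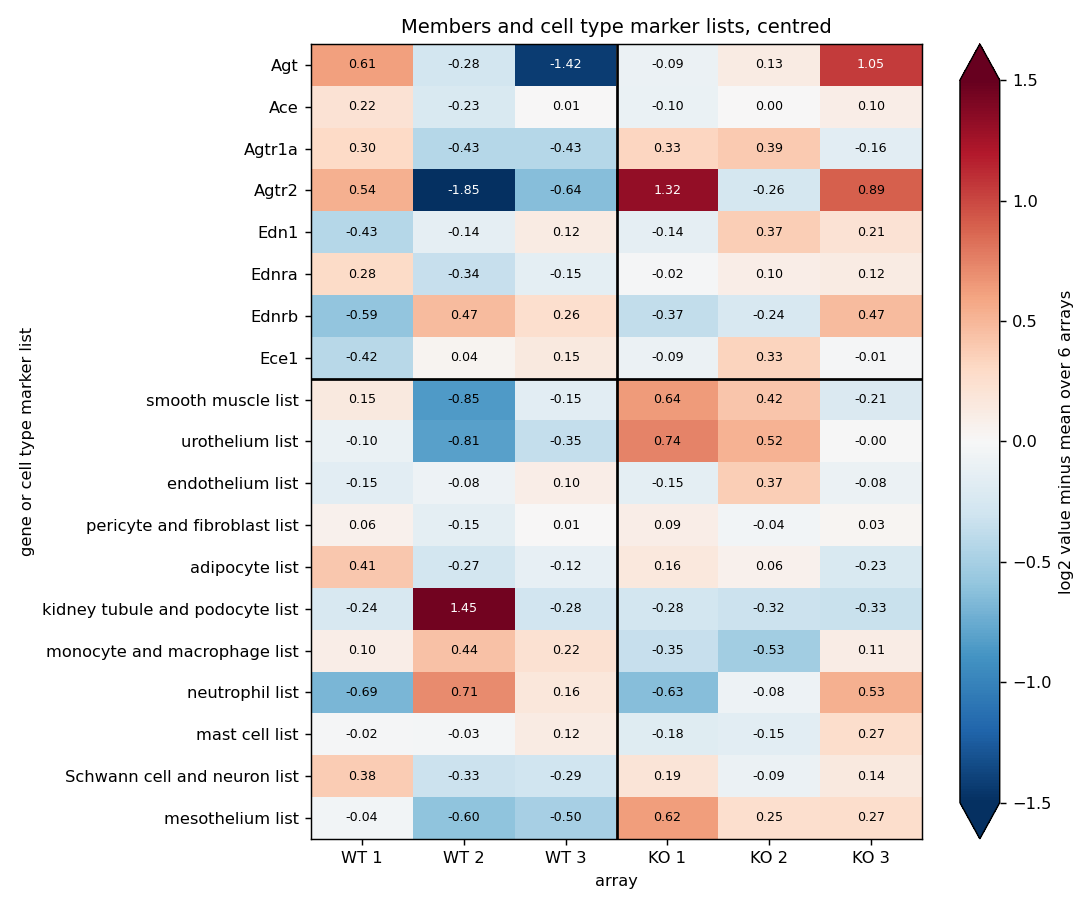
Log2 values minus their mean over the 6 arrays (colour and printed number) for the 8 measured members (upper rows) and for the mean of each cell type marker list (lower rows), by array, with WT to the left. Agtr2 runs from -1.85 in WT replicate 2 to 1.32 in KO-labelled replicate 1, while Ednrb is at 0.47 in WT replicate 2 and -0.59 in WT replicate 1.

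**Figure D3:**
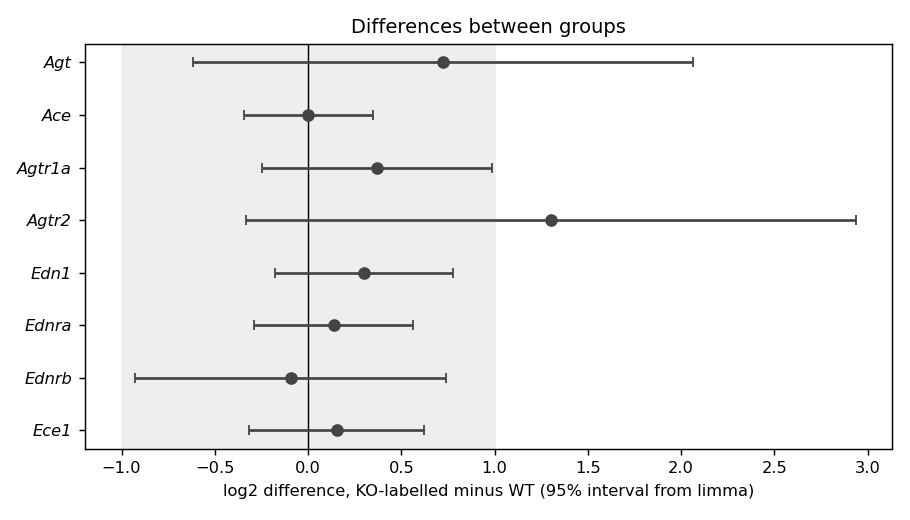
Log2 difference between KO-labelled and WT arrays for the 8 measured members (points) with the 95% interval from limma (bars); the grey band spans a 2-fold change in either direction. Every interval includes 0, and those of Agt and Agtr2 reach 2.07 and 2.94.

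Some other genes resembled members over the 6 arrays, to differing degrees. Members above background on every array that varied by at least 1 log2 unit were used. For each, the 3 genes with the smallest root mean square difference of centred values were taken from 14427 named genes. These genes did not have to be above background on every array. The likeness is a description, and in so large a pool close matches to 6 values can arise without a link. How often they do was not tested. Agt, with a root mean square spread of 0.77, was followed by Alb, serum albumin, at 0.23, then Mmrn1 at 0.32 and Serpina3b at 0.39. Alb was dim, with levels from -5.43 in WT replicate 3 to -3.61 in KO-labelled replicate 3. For comparison, Lrp2, which was above background on only 4 arrays, had levels from -5.12 to -3.99. Agtr2, with a spread of 1.06, was followed by the major urinary proteins Mup18 (0.34) and Mup17 (0.36), near-identical genes whose probes can share signal. Next was the protease Tmprss11a (0.39), which was also dim, with a level of -4.68 in WT replicate 2. Ednrb, with a spread of 0.42, was followed by Pvr (0.068), an adhesion receptor whose 2 probes differed in sign, by Exoc3l4 (0.072), and by Star (0.079), a cholesterol transporter of steroid-making cells.

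No gene of the 4 further pathway lists passed the test. Of 20 further angiotensin system genes 18 were measured and 0 passed (limma, adjusted p-values from 0.555 to 0.990); 0 had an unadjusted p under 0.05, 9 differences were positive and 9 negative, and the median was 0.016. Prcp, which trims angiotensin II, had levels of 3.53, 3.57 and 3.47 in WT and 3.20, 3.19 and 3.41 in KO-labelled arrays, a difference of -0.26 ± 0.11. Agtrap, a protein that binds and restrains the type 1 receptor, differed by -0.24 ± 0.13. The groups did not overlap for these 2 of 18 genes, both lower, where 8.13% of all genes were lower without overlap. Anpep, an aminopeptidase of the angiotensin peptides, differed by -0.45 ± 0.26, and by -0.70 without WT replicate 2 and -0.19 without WT replicate 1. Klk1, tissue kallikrein, which is abundant in kidney, was above background on all 3 WT arrays but on 1 KO-labelled array, so it was tested because of its WT signal and its KO-labelled mean is in part unmeasured. The fitted difference was -2.63 ± 1.24, and was -0.85 with normexp background correction and -1.25 without the kidney-marked WT replicate 2, where its level was 0.65 against -4.51 and -2.49 in the other WT arrays.

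A pair of further enzymes that make angiotensin peptides was picked after their values were seen. Ren1, renin, had levels of -5.07, -1.99 and -3.71 in WT and -3.02, -3.55 and -2.47 in KO-labelled arrays. Its signal was above background on 2 WT arrays and 3 KO-labelled arrays. It was highest in WT replicate 2, the kidney-marked array, its difference was 0.57 ± 0.76, and its other probe differed by -0.13. Leaving out WT replicate 2 gave 1.37 and leaving out WT replicate 1 gave -0.17. Cma1, a mast cell chymase that can also make angiotensin II, differed by -0.016 ± 0.24, and by -0.26 without WT replicate 2 and 0.18 without WT replicate 1. Mas1, the receptor for angiotensin fragments, was too dim to be tested.

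Of 10 further endothelin system genes 7 were measured, and Edn3, Kel and Phex were not. None of the 7 passed (0 of 7; limma, adjusted p-values from 0.498 to 0.989), 6 differences were negative, and the median was -0.065. Ece2, a second endothelin-converting enzyme, had levels of -3.68, -3.53 and -3.86 in WT and -4.48, -3.86 and -4.34 in KO-labelled arrays. All 3 KO-labelled arrays lay below the WT arrays, but WT replicate 3 and KO-labelled replicate 2 were almost level. The difference was -0.54 ± 0.19 (limma, unadjusted p = 0.0278, adjusted p = 0.498), with its other probe at -0.57, and it shrank to -0.084 with normexp background correction. An unadjusted p under 0.05 in the lower direction was found for 4.71% of all genes. Ecel1, a related protease of neurons, differed by 0.28 ± 0.14 (0.050 with normexp) with its other probe at -0.072, Mme, neprilysin, which degrades endothelin and angiotensin peptides, by -0.43 ± 0.32, and Pcsk7, a proprotein convertase, by -0.11 ± 0.13. Without WT replicate 2 the difference was -0.70 for Mme and -0.0079 for Pcsk7, and without WT replicate 1 it was -0.17 for Mme.

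Genes that carry the signal of these receptors were measured completely, 25 of 25, and 0 passed (limma, adjusted p-values from 0.502 to 0.999). The median difference was -0.0030, and 2 genes had an unadjusted p under 0.05 in the higher and 1 in the lower direction, where 4.35% and 4.71% of all genes did. Itpr3 and Itpr2, calcium release channels opened by inositol trisphosphate, differed in opposite directions. Itpr3 was at 2.75, 2.85 and 2.97 in WT and 3.13, 3.29 and 3.1 in KO-labelled arrays (0.32 ± 0.11). Itpr2 was at 2.76, 2.13 and 2.20 in WT and 1.86, 1.93 and 1.80 in KO-labelled arrays (-0.50 ± 0.19). At these probes the groups did not overlap, and over the 4 measured probes of Itpr2 the difference ran from -0.61 to -0.020. Rock2, a kinase that sensitises smooth muscle to calcium, differed by 0.23 ± 0.09 and Arrb2, an arrestin that switches receptors off, by -0.63 ± 0.27. Groups did not overlap for 3 higher and 4 lower genes of the 25, where 7.28% and 8.13% of all genes did.

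Genes known to respond to angiotensin II or endothelin were measured for 15 of 16, all but Nppb, and 0 passed (limma, adjusted p-values from 0.488 to 0.999). Their median difference was -0.012, with 6 positive and 9 negative, and 2 had an unadjusted p under 0.05, both lower, where 4.71% of all genes were counted in that direction. Cybb, the catalytic chain of the phagocyte NADPH oxidase, was at 1.06, 0.86 and 0.64 in WT and 0.13, -0.16 and 0.61 in KO-labelled arrays, a difference of -0.66 ± 0.22. It is also a macrophage gene, and for macrophage and monocyte markers 9 of 10 differences were negative, with a median of -0.54; the part of these cells in Cybb was not tested. Vcam1, an adhesion molecule for leukocytes, differed by -0.30 ± 0.12 (-0.051 at its other probe), Icam1, another one, by 0.28 ± 0.14, and Ccn2, a matrix growth factor, by 0.69 ± 0.34.

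**Figure D4:**
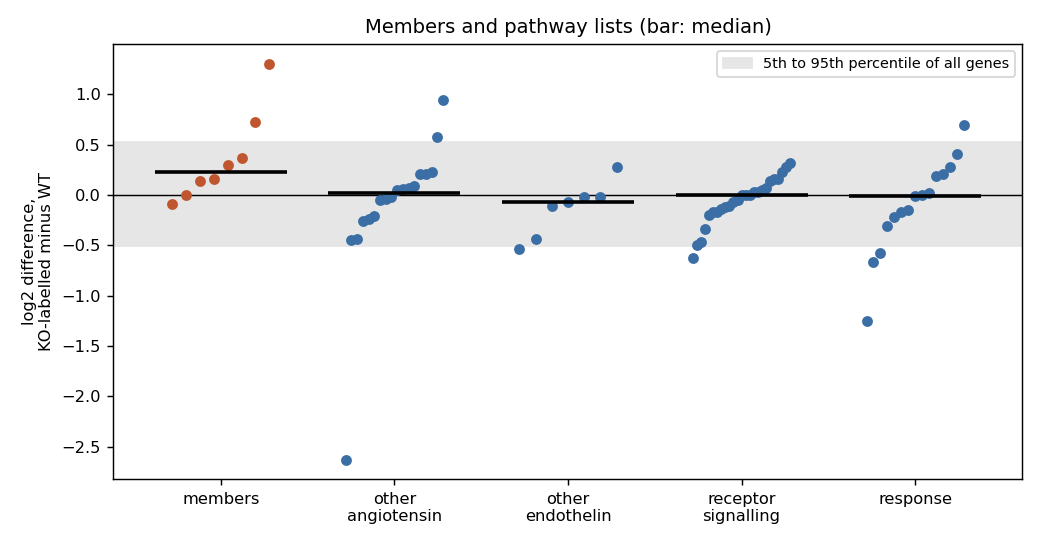
Log2 difference between KO-labelled and WT arrays (y axis) for each measured gene of the set and of the 4 pathway lists (points, sorted), with each median (bar) and the 5th to 95th percentile of all genes, -0.50 to 0.53 (grey). Medians of the 4 lists lie between -0.065 and 0.016 and that of the set at 0.23, with Klk1, unmeasured on 2 KO-labelled arrays, the lowest point at a fitted -2.63.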

How the data were processed

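RNA of 6 mouse ureter samples was measured on single-colour arrays that shared 1 slide and 1 scan time. Per the file headers, the deposited intensity values were made with Agilent Feature Extraction 12.0.3.1, with background subtraction and spatial detrending inside each array; how arrays were scaled to each other is not stated there, and probe positions are of build mm9. Spots marked as outliers were dropped, spots of a probe averaged, and log2 processed signals centred on the 75th percentile of each array over its non-control probes. Accessions named 35400 of 56605 probes through RefSeq GRCm38.p6, and the rest kept the files' names.

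A probe was kept if all arrays of 1 group or of both measured it well above background, and the brightest of a gene's kept probes stood for it. The resulting 22260 genes were fitted with limma 3.58.1 in R 4.3.3 (lmFit, eBayes) and adjusted by the Benjamini-Hochberg method at a threshold of 0.05; a separate fit took all 56605 probes. Each array had 35482 to 36568 probes that were well above background; the number of arrays limits the precision. No probe of the set lacked a value. An exact permutation test of 3 against 3 cannot go below 0.1 and was not used.

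The genes and lists were chosen with earlier results of these data known. The text names every gene of the set, the 4 genes with the lowest p of each pathway list and the 2 first markers of each cell type list, of which those not cited with values were above background on all arrays. Of 35 named genes, 16 had several measured probes, and for 3 (Ecel1, Ren1 and Pvr) these differed in sign. On data simulated for the KO against WT comparison over 22260 genes, recovery was 52.8% for 2-fold changes and 93.2% for 4-fold ones, with a mean of 9 false calls. These shares depend on how many genes change. The simulated noise was independent between genes and arrays, so arrays that deviate together were not covered. The shares are averages over randomly picked genes. They do not hold for Agt and Agtr2, whose pooled SDs were 0.84 and 1.03, where the median gene had 0.20. Alternatives covered background correction, normalisation, the filter, probe choice, variance model, array weights, sex, pairing and leaving out arrays.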

Additional observations from a re-analysis of the deposited data

How the results depend on the processing

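None of the 8 members passed the threshold under any of the 17 alternatives, 1 of which, leaving out WT replicate 2 and KO-labelled replicate 3 together, was chosen after the data were seen. With limma the count of all genes past the threshold was 498 under array weights of 0.229 to 6.93 that had not converged; there Agtr1a, Agt and Agtr2 had their lowest adjusted p-values, 0.0561, 0.0900 and 0.0989. With the replicate block 1 gene passed and none of the members, and same-numbered samples deviated together only in part (correlations across genes of 0.531, -0.149 and -0.0295), so the numbers were not taken as pairs. Leaving out single arrays gave 0 to 1 genes. Agt, Agtr1a and Agtr2 kept a positive difference in all settings, from 0.196 to 1.41, 0.249 to 0.670 and 0.420 to 1.90. Not every setting could change the sign, since each of these genes had 1 measured probe. For them the filters, probe averaging, variance model and replicate block returned the main difference. As KO-labelled replicate 3 was the only female, the sex covariate gave the same differences as leaving it out. The other 5 members changed sign in at least 1 setting: Ace with normexp background (-0.013), quantile normalisation (-2.163e-05), array weights (-0.029), a sex covariate (-0.050) and without WT replicate 2 and KO-labelled replicate 3 together (-0.16), and when arrays were left out singly between -0.11 and 0.11; Edn1 and Ece1 with array weights (-0.010 and -0.074); Ednra without WT replicate 2 and KO-labelled replicate 3 together (-0.027). With arrays left out singly, Ednrb lay between -0.41 and 0.12, Ece1 between -0.016 and 0.27 and Ednra between 0.00089 and 0.31. Array weights gave Ednrb -0.45. Of the members, Edn2 and 1 Ednra probe were mostly not above background. Some members above background on every array also depended on its correction. With normexp the difference fell from 1.30 to 0.42 for Agtr2, from 0.72 to 0.41 for Agt and from 0.30 to 0.14 for Edn1.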
